A study of Bubalus bubalis with 2 samples.

Results

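Integrins and the genes of cell junctions were examined in cell-free saliva RNA of Murrah buffalo, a breed of water buffalo kept for milk, in 1 library taken at estrus, the stage of sexual receptivity, and 1 taken at diestrus, the luteal stage. Members were chosen by symbol from the deposited gene table, as integrin subunits, numbered cadherins, claudins, connexins (GJA, GJB and GJC genes), desmosomal genes, junctional adhesion molecules, tight junction scaffolds, occludin and 2 catenins. The symbols picked out 110 of 20905 rows, of which 4 (ITGB1BP1, ITGB1BP2, ITGB3BP and ITGBL1) only share the integrin prefix and are not subunits. Values are FPKM, fragments per kilobase of transcript, scaled to the mapped fragments of the library, so levels can be set beside each other between genes. No allele or treatment is named in the labels, neither the age of the animals nor whether animals were pooled is given in the sources used here, and 1 library per stage leaves no estimate of the spread between animals. The differences below therefore have no replicate check, carry no test and describe these libraries.

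Cells hold to the matrix and to each other through different protein families. Integrins are pairs of an alpha and a beta subunit that bind matrix proteins outside the cell and the actin skeleton inside it, through adaptors such as talin and kindlins. Cadherins join neighbouring cells and are anchored by catenins, desmosomes tie keratin filaments of adjacent epithelial cells together, claudins and occludin seal the space between epithelial cells, and connexins form gap junction channels through which small molecules pass. In stratified epithelium such as the oral lining, CDH1, desmogleins, claudins and beta connexins are typical, whereas fibroblasts and other mesenchymal cells typically carry CDH2 or CDH11, the fibronectin receptor subunit ITGA5 and the connexin GJA1.

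Depth, as estimated here, was unequal between the libraries. A minority of short loci had FPKM values on fitted whole-fragment steps, 40 of 1075 in range at estrus and 107 of 1237 at diestrus. On these steps 1 fragment per effective kb came to 0.233 FPKM at estrus and 1.25 FPKM at diestrus. The step at diestrus was therefore 5.36-fold that at estrus. Statements below on depth and on fragments per kb rest on that minority and are estimates. The level of 3 fragments per kb was 0.7000 FPKM at estrus and 3.75 FPKM at diestrus. Only 4 of 16 salivary gland secretory rows were above 0 in either library, and AMY2B, LPO and BPIFA1 were listed at 0 in both. The other 12 rows were at 0 in both, beside 49.4% of all rows. A listed 0 in such a table can be a failed estimate and is not read here as absence of the transcript.

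Members divided by how widely they were listed. Of the 110 members, 55 were at 0 in both libraries (a share of 49.4% over all rows), 26 were above 0 in both, 5 in estrus only and 24 in diestrus only. In summed FPKM the members came to 1232 in estrus and 811 in diestrus, which is 0.121% of the FPKM sum of the estrus library and 0.156% of that of the diestrus library. A member was counted when its mean over both libraries was at least 1 FPKM, which 36 members met. Ratios are log2((estrus FPKM + 1)/(diestrus FPKM + 1)), a scale that shrinks the ratios of low genes, and a counted gene was called at 2-fold or more.

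Epithelial junction genes were mostly seen in diestrus. Among 44 members assigned to the epithelial class, 7 were above 0 in estrus and 22 in diestrus, and 16 of those 22, or 72.7%, were at 0 in estrus. Over all rows above 0 in diestrus 22.6% were at 0 in estrus, and over rows in the same low range, up to 30 FPKM at diestrus, 26.5% were. Of the 22, only 9 reached 3 fragments per kb in diestrus, and 5 of these 9 were at 0 in the deeper estrus library, where 13.8% of all rows at that depth and up to 30 FPKM were. The 30 FPKM limit was chosen after the values were seen, since the highest epithelial member stood at 27.1 FPKM.

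Of 14 counted epithelial members 1 was at least 2-fold higher in estrus, 11 were at least 2-fold lower and 2 lay between. Among all 8269 counted genes 31.3% were higher and 33.1% lower, and their median log2 ratio was -0.016, against -2.39 for the epithelial members. However, 11 of the 14 stood below 1 FPKM at estrus and passed the filter only through diestrus, so the 9 at 0 in estrus had to be called lower, and the count is a description. The size of the median depended on the pseudocount, at -5.15 with 0.1 FPKM and -0.66 with 10 FPKM. In the 5 counted members above 0 in both libraries 2 were lower, 1 was higher and the median was -0.98. In RNA of mixed origin, fewer cells of a type and less RNA per cell cannot be told apart.

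**Figure D1:**
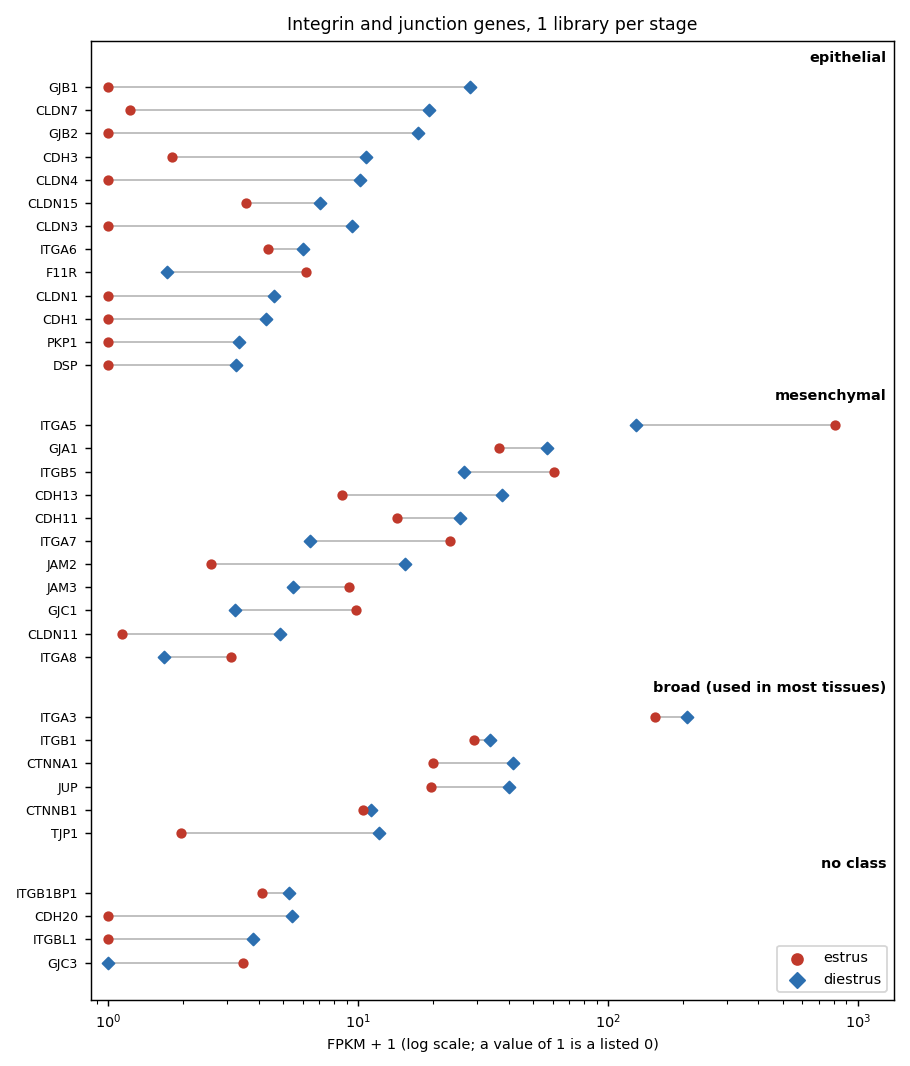
FPKM + 1 of 34 counted members on a log axis, with a red circle for the estrus library and a blue diamond for the diestrus library, grouped by class and ordered by mean. In the epithelial class 8 of the 13 red circles sit at a listed 0, whereas in the mesenchymal class all 11 members are above 0 in both libraries and ITGA5 lies farthest right at 812 FPKM at estrus.

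Gap junction genes of epithelia were among the highest of that class in diestrus. GJB1, which encodes connexin 32 of liver, glands and myelinating cells (chromosome X, 84715936 to 84723342), was at 0 in estrus and at 27.1 FPKM at diestrus. GJB2, connexin 26 of cochlea and epidermis, was at 0 in estrus and at 16.4 FPKM at diestrus. Both diestrus values exceeded 3 fragments per kb, and both genes were at 0 in the deeper library.

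GJB6, which is co-expressed with GJB2 in the cochlea, was at 0 in estrus and at 1.05 FPKM at diestrus, under 3 fragments per kb. GJB2 lies with GJB6 and GJA3 within 63.5 kb of chromosome 12 (36310779 to 36374313), where GJA3 was at 0 in both.

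Other connexins behaved otherwise. GJA1, connexin 43 of fibroblasts, smooth muscle and many other cells (chromosome 9, 30127786 to 30140793), stood at 35.8 FPKM at estrus and 55.8 FPKM at diestrus, for a log2 ratio of -0.63 that was -1.01 with equal upper quartiles and -1.17 with equal sums without the 10 highest rows. GJC1, connexin 45 of smooth muscle and heart, stood at 8.83 FPKM at estrus and 2.20 FPKM at diestrus, for a log2 ratio of 1.62, with the diestrus value under 3 fragments per kb. GJC3, a connexin of myelinating glia, was at 2.48 FPKM at estrus and listed at 0 at diestrus.

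Claudins, which set the permeability of tight junctions, were listed above 0 mainly in diestrus. Of 22 claudin rows 13 were at 0 in both libraries, 6 were above 0 in diestrus only and 3 in both, and none was above 0 in estrus only. Over all rows 49.4% were at 0 in both libraries, 10.3% were above 0 in diestrus only and 5.17% in estrus only. Of the 6 counted claudins 5 passed the filter only through diestrus. CLDN7, a claudin of glandular and stratified epithelia (chromosome 19, 27602595 to 27604817), was at 0.226 FPKM at estrus and 18.2 FPKM at diestrus, for a log2 ratio of -3.97. The estrus value of CLDN7 was under 3 fragments per kb and the diestrus value well above it. CLDN4 was at 0 in estrus and 9.21 FPKM at diestrus, and CLDN3 at 0 in estrus and 8.49 FPKM at diestrus, both of them receptors of the Clostridium perfringens enterotoxin.

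CLDN3 and CLDN4 are adjacent on chromosome 25 (33988117 to 34019669), with no other row of the table in the 31.6 kb they span. Their short loci allowed the diestrus values to be read as fragments, if each locus is a single exon. CLDN4 then rested on 10 fragments (exact Poisson 95% interval 4.80 to 18.4) and CLDN3 on 7 (2.81 to 14.4), each within 0.0238 of a whole number. CLDN23, a further short locus, was at 0 in estrus and rested on 1 fragment at 1.79 FPKM at diestrus. On the same lengths 3 fragments in estrus would have been 0.513 FPKM for CLDN4 and 0.678 FPKM for CLDN3. These intervals cover counting error only.

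The remaining claudins were low. CLDN1, needed for the epidermal barrier in mice, was at 0 in estrus and 3.61 FPKM at diestrus, just under 3 fragments per kb. CLDN15, which forms cation pores in the intestine, stood at 2.55 FPKM at estrus and 6.004 FPKM at diestrus, for a log2 ratio of -0.98 that fell short of 2-fold. Under the 3 rescalings its ratio lay between -1.46 and -1.06, past 2-fold. CLDN11, a claudin of myelin and testis counted here as mesenchymal, stood at 0.138 FPKM at estrus and 3.88 FPKM at diestrus, for a log2 ratio of -2.10. CLDN2 and CLDN12, at 0.502 and 0.382 FPKM at diestrus, were at 0 in estrus and too low to be counted.

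Cadherins of epithelia were found beside them. CDH3, P-cadherin of basal epithelial layers, stood at 0.793 FPKM at estrus and 9.75 FPKM at diestrus, for a log2 ratio of -2.58. CDH1, E-cadherin, the core of epithelial adherens junctions, was at 0 in estrus and at 3.28 FPKM at diestrus, a value under 3 fragments per kb. These genes are neighbours on chromosome 18 (36095734 to 36243479). Of the 22 cadherin rows 15 were at 0 in both libraries, beside 49.4% of all rows.

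The mesenchymal cadherins CDH11 and CDH13 were above 0 in both libraries and also had their lower value at estrus. CDH11, OB-cadherin of fibroblasts and bone-forming cells, stood at 13.3 FPKM at estrus and 24.5 FPKM at diestrus, for a log2 ratio of -0.83 that did not reach 2-fold. It passed 2-fold at -1.20 with equal upper quartiles and at -1.36 with equal sums without the 10 highest rows. CDH13, an anchored cadherin of vessels and muscle, stood at 7.61 FPKM at estrus and 36.7 FPKM at diestrus, for a log2 ratio of -2.13. CDH2, N-cadherin, was at 0 in estrus and at 0.810 FPKM at diestrus. CDH20, a type II cadherin assigned to no class, was at 0 in estrus and at 4.42 FPKM at diestrus. Of the 5 counted cadherins 0 were higher in estrus, 4 were lower and 1 lay between, beside 31.3% higher and 33.1% lower over all counted genes. However, 3 of the 5 passed the filter only through diestrus and could not be called higher, so the count is a description.

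Most desmosomal genes were low or at 0. The desmosomal cadherins DSC1 to DSC3 and DSG1 to DSG4 follow each other within 535 kb of chromosome 24 (25913549 to 26448151), and 5 of these 7 rows were at 0 in both libraries. DSG1, of the upper epidermis, was at 0 in estrus and 1.49 FPKM at diestrus, and DSG2, of simple epithelia, at 0.181 FPKM at estrus and 0.713 FPKM at diestrus. The plaque proteins DSP and PKP1, which link desmosomal cadherins to keratins, were at 0 in estrus and at 2.24 and 2.33 FPKM at diestrus, all under 3 fragments per kb. The exception was JUP, plakoglobin, which serves desmosomes and adherens junctions alike. JUP stood at 18.6 FPKM at estrus and 39.2 FPKM at diestrus, for a log2 ratio of -1.03 that is close to the 2-fold limit.

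**Figure D2:**
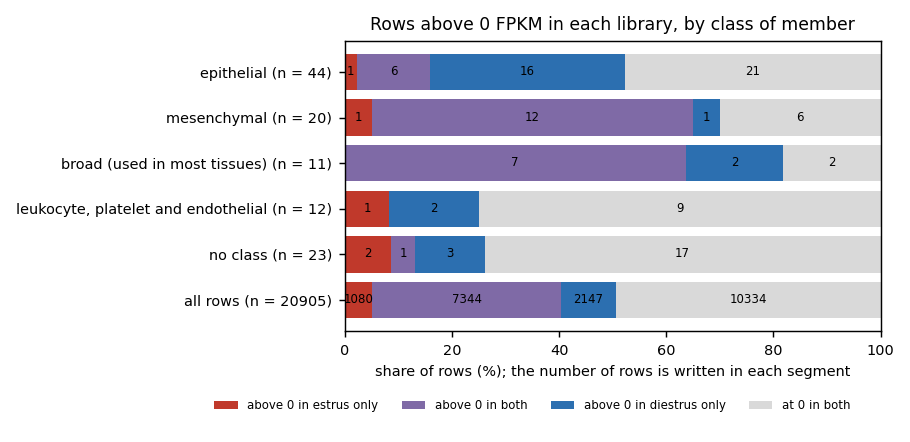
Share of rows in each class that were above 0 FPKM at estrus only, in both libraries, in diestrus only or in neither, with the number of rows written in each segment. Of the 44 epithelial members 16 were above 0 in diestrus only, whereas 12 of the 20 mesenchymal members were above 0 in both libraries.

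Catenins and scaffolds of general use ranged from level to more than 2-fold lower in estrus. CTNNB1, beta-catenin, stood at 9.44 FPKM at estrus and 10.3 FPKM at diestrus, for a log2 ratio of -0.11. CTNNA1, alpha-catenin, stood at 18.9 FPKM at estrus and 40.6 FPKM at diestrus, for a log2 ratio of -1.06. TJP1, the scaffold ZO-1 (chromosome 21, 28934158 to 28992880), had the lowest ratio of them, at 0.956 FPKM at estrus and 11.1 FPKM at diestrus, for a log2 ratio of -2.63.

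The junctional adhesion molecules went different ways. JAM2, of endothelium and other cells, stood at 1.57 FPKM at estrus and 14.4 FPKM at diestrus, for a log2 ratio of -2.58. JAM3, which binds JAM2, stood at 8.18 FPKM at estrus and 4.51 FPKM at diestrus, for a log2 ratio of 0.74. F11R, also called JAM-A, of epithelial tight junctions and leukocytes (chromosome 3, 8483556 to 8508122), stood at 5.16 FPKM at estrus and 0.715 FPKM at diestrus, for a log2 ratio of 1.84. F11R was the 1 counted epithelial member higher in estrus, and its diestrus value was under 3 fragments per kb. OCLN, occludin, was at 0 in both libraries.

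Integrins held most of the FPKM of the members. The 17 alpha subunits summed to 993 FPKM at estrus and 346 FPKM at diestrus, and the 8 beta subunits to 88.2 FPKM at estrus and 60.7 FPKM at diestrus. Of the alpha subunits 9 were at 0 in both libraries, near the share of 49.4% over all rows. Another 5 were counted, of which 2 were higher in estrus, 0 lower and 3 between. Of the beta subunits 2 were counted, with 1 higher in estrus and 1 between. These are too few genes to set against the shares of 31.3% higher and 33.1% lower over all counted genes, and the counts are a description.

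ITGA5, the alpha subunit of the fibronectin receptor (chromosome 5, 25778012 to 25799053), was the most abundant member in estrus. It stood at 812 FPKM at estrus and 129 FPKM at diestrus, for a log2 ratio of 2.65, and ranked 159 among all rows in estrus and 561 in diestrus. In estrus it made up 81.8% of the alpha subunit sum and in diestrus 37.2%. The authors' deposited table gave ITGA5 a p-value of 0.1609 and a q-value of 0.797, and did not mark it as significant. Under the rescalings tried its log2 ratio lay between 2.11 and 2.56.

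ITGA3, a laminin-binding subunit of epithelia and many other cells (chromosome 19, 37198628 to 37231287), was the most abundant member in diestrus. It stood at 153 FPKM at estrus and 206 FPKM at diestrus, for a log2 ratio of -0.43. The order of the leading alpha subunits was thus reversed, with 5.32 times as much ITGA5 as ITGA3 in estrus and 0.625 times as much in diestrus. ITGA3 and ITGA5 were the 2 members with a p-value under 1 in the authors' deposited table, where ITGA3 had 0.8561 and the other 108 members had 1. Values under 1 were uncommon there, at 1253 of all 20905 rows.

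ITGB1, the beta subunit with which both of these pair, was similar in the libraries. It stood at 28.1 FPKM at estrus and 32.8 FPKM at diestrus, for a log2 ratio of -0.22. ITGA5 therefore stood at 28.9 times the ITGB1 level in estrus and 3.93 times in diestrus, ITGB1 being its known beta partner. ITGA3 stood at 5.43 times ITGB1 in estrus and 6.28 times in diestrus. FPKM is scaled to the transcript models of the authors' annotation, so such ratios between genes also carry any error in those models.

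Other integrin subunits of mesenchymal cells also had their higher value at estrus. ITGB5, a vitronectin receptor subunit (chromosome 1, 69801844 to 69899676), stood at 59.5 FPKM at estrus and 25.6 FPKM at diestrus, for a log2 ratio of 1.18. The ITGB5 ratio came to 0.81 once upper quartiles were made equal, under 2-fold. ITGA7, a laminin receptor subunit of muscle, stood at 22.4 FPKM at estrus and 5.41 FPKM at diestrus, for a log2 ratio of 1.87. ITGA8, a receptor subunit of smooth muscle and fibroblasts, stood at 2.10 FPKM at estrus and 0.665 FPKM at diestrus, for a log2 ratio of 0.90, its diestrus value being under 3 fragments per kb.

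Not every subunit was matched by its partner. ITGAV, the alpha subunit with which ITGB5 pairs, was at 0 in both libraries, as were ITGA2, ITGA9, ITGA10 and ITGA11. The locus given for ITGAV overlaps a pseudogene row, which was also at 0. ITGB3, another ITGAV partner, stood at 0.535 FPKM at estrus and 0.501 FPKM at diestrus, and ITGA1, a collagen receptor subunit, at 0.341 FPKM at estrus and 0 in diestrus.

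The integrin of hemidesmosomes, which fix basal epithelial cells to the basement membrane, consists of ITGA6 and ITGB4. ITGA6 stood at 3.37 FPKM at estrus and 5.03 FPKM at diestrus, for a log2 ratio of -0.46. ITGB4 was at 0 in estrus and 1.30 FPKM at diestrus, and ITGB6, an epithelial subunit, was at 0 in both libraries. ITGA6 can also pair with ITGB1, so its level does not stand for hemidesmosomes alone.

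The members assigned to the class of leukocytes, platelets and endothelium were at or near 0. Of 12 members of this class 9 were at 0 in both libraries, among them the leukocyte subunits ITGB2, ITGAL and ITGAM and the endothelial genes CDH5 and CLDN5. Among all rows 49.4% were at 0 in both. The other 3 were ITGAE, a subunit of intraepithelial lymphocytes, at 0.326 FPKM at estrus and 0 in diestrus, and ITGA2B and GJA5, at 0 in estrus and 0.421 and 0.673 FPKM at diestrus. No member of this class was counted. JAM2 and CDH13, which are also found in vessels, had been assigned to the mesenchymal class and were above 0 in both libraries. The locus of ITGAE overlaps that of HASPIN, which reached 6.14 FPKM in 1 library, so their reads may be shared.

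The members in no class, 23 rows, were mostly at 0 in both libraries, with 17 such rows, beside 49.4% of all rows. ITGB1BP1, which binds the tail of ITGB1, stood at 3.11 FPKM at estrus and 4.29 FPKM at diestrus, and ITGBL1, an integrin-like secreted protein, was at 0 in estrus and 2.79 FPKM at diestrus. Among members too low to be counted, TJP3 was at 0.400 FPKM at estrus and 0 in diestrus. PKP2, PKP3, ITGB8 and CDH26 were at 0 in estrus and between 0.469 and 0.879 FPKM at diestrus.

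In the mesenchymal class as a whole 4 of 11 counted members were at least 2-fold higher in estrus, 3 were lower and 4 lay between, with a median log2 ratio of 0.74. The shares of all counted genes were 31.3% higher and 33.1% lower, so the counts of this class were near the background. With equal upper quartiles 3 were higher and 5 lower. Within the class ITGA5, ITGB5, ITGA7 and GJC1 were the higher genes, and CDH13, JAM2 and CLDN11 the lower ones. The class summed to 972 FPKM at estrus and 304 FPKM at diestrus, but without ITGA5 to 160 FPKM at estrus and 175 FPKM at diestrus. The epithelial class summed to 12.7 FPKM at estrus and 144 FPKM at diestrus.

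**Figure D3:**
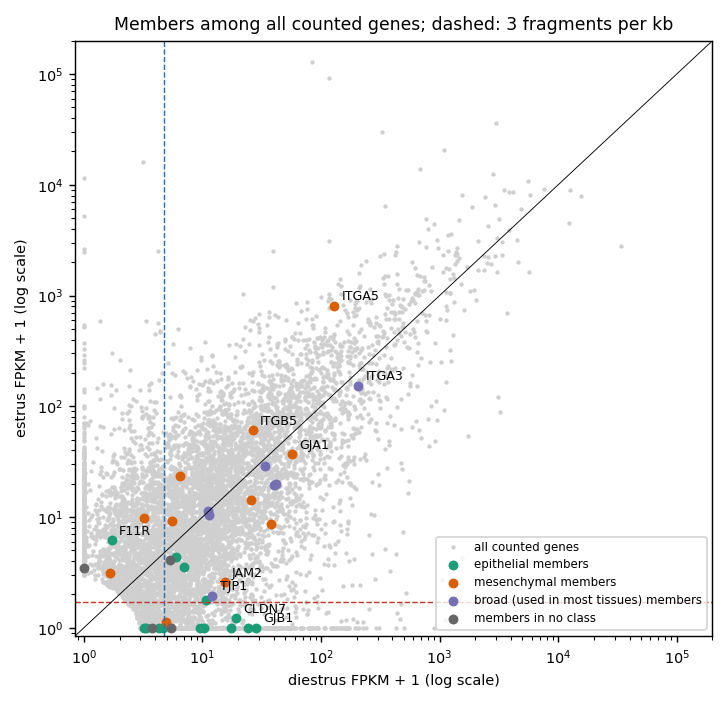
Estrus FPKM + 1 against diestrus FPKM + 1 on log axes, with grey points for the 8269 counted genes, coloured points for the counted members by class, a black line of equality and dashed lines at 3 fragments per kb in each library. Of the 14 epithelial members 10 lie under the estrus line of 3 fragments per kb, ITGA5 lies above the line of equality at 812 FPKM at estrus and 129 FPKM at diestrus, and ITGA3 lies just under it.

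Marker genes of the cell types themselves differed alongside these members, and their part in the result was not tested. Of 22 epithelial identity genes that are no members, 6 were at 0 in both libraries and 11 were counted, with 1 higher in estrus, 9 lower and 1 between, and the median log2 ratio was -3.04. Of these 11, 6 stood under 1 FPKM in estrus and passed the filter only through diestrus, so they could not be called higher, and the shares of all counted genes were 31.3% higher and 33.1% lower. EPCAM, an epithelial adhesion molecule named after its values were seen, was at 0 in estrus and 7.23 FPKM at diestrus. KRT5, a keratin of basal cells, stood at 6.80 FPKM at estrus and 164 FPKM at diestrus. KRT19 stood at 0.193 FPKM at estrus and 460.1 FPKM at diestrus, and KRT14 at 0.124 FPKM at estrus and 223 FPKM at diestrus. The list summed to 270.2 FPKM at estrus and 1091 FPKM at diestrus.

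Mesenchymal identity genes were above 0 in both libraries in all 20 rows, whereas 7344 of all 20905 rows were. Of the 20, 8 were higher in estrus, 3 lower and 9 between, and the median log2 ratio was 0.44. The shares of all counted genes were 31.3% higher and 33.1% lower. S100A4, a calcium-binding protein of fibroblasts and leukocytes, stood at 14005 FPKM at estrus and 689 FPKM at diestrus, while VIM, vimentin, stood at 2014 FPKM at estrus and 4579 FPKM at diestrus. FN1, fibronectin, the ligand of the ITGA5 receptor and named for that reason, stood at 680.1 FPKM at estrus and 418 FPKM at diestrus, for a log2 ratio of 0.70. This list summed to 22823 FPKM at estrus and 11461 FPKM at diestrus, but without S100A4 the direction turned, with 8818 FPKM at estrus and 10772 FPKM at diestrus.

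Few markers of other cells were listed above 0. Of 20 neutrophil rows 16 were at 0 in both libraries, of 17 lymphocyte rows 12, of 14 macrophage and monocyte rows 10, of 12 endothelial rows 8 and of 8 erythroid rows 6. The share over all rows was 49.4%, and these lists are short. PTPRC, PECAM1, MPO and HBB were at 0 in both. The neutrophil list summed to 213 FPKM at estrus and 72.9 FPKM at diestrus, mostly from CYBA at 212 FPKM at estrus and 51.7 FPKM at diestrus. The lymphocyte list came to 126 FPKM at estrus and 3.69 FPKM at diestrus, mostly from CD247 at 115 FPKM at estrus and 1.62 FPKM at diestrus. Macrophage and monocyte genes summed to 28.8 FPKM at estrus and 5.48 FPKM at diestrus, and endothelial genes to 50.8 FPKM at estrus and 12.2 FPKM at diestrus. In the endothelial list ESAM carried 50.7 FPKM at estrus and 1.49 FPKM at diestrus, whereas the transcription factor ERG was at 0 in estrus and 10.5 FPKM at diestrus. Erythroid genes summed to 5.81 FPKM at estrus and 78.1 FPKM at diestrus, mostly from SLC25A37, a mitochondrial iron importer, at 5.30 FPKM at estrus and 71.4 FPKM at diestrus. The neutrophil and endothelial lists share members with the integrins and junction genes, all of them at 0 in both libraries. Of the oral squamous epithelium list 10 of 21 rows were counted, with 3 higher in estrus, 5 lower and 2 between. Of these 10, 3 passed the filter only through diestrus, and the shares of all counted genes were 31.3% higher and 33.1% lower. The most abundant gene of this list, the stress-induced keratin KRT6A, ran opposite to KRT5 and KRT14, at 30046.5 FPKM at estrus and 323 FPKM at diestrus. The list shares KRT5 and KRT14 with the epithelial identity genes. The 4 counted salivary secretory genes had 2 higher in estrus, 1 lower and 1 between, too few to set against the same shares of all genes. Among them the cystatin CST6 stood at 4786 FPKM at estrus and 1471 FPKM at diestrus.

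The adaptors that tie integrins to actin were not uniformly on either side. Of 25 such genes 18 were counted, with 6 higher in estrus, 5 lower and 7 between, and the median log2 ratio was -0.24. Over all counted genes 31.3% were higher and 33.1% lower. ZYX, zyxin of mature adhesion sites, stood at 777 FPKM at estrus and 209 FPKM at diestrus, and FLNA, the actin crosslinker filamin A, at 764 FPKM at estrus and 116 FPKM at diestrus. ILK, the integrin-linked pseudokinase, stood at 353 FPKM at estrus and 111 FPKM at diestrus, whereas VCL, vinculin, stood at 322 FPKM at estrus and 284 FPKM at diestrus. FERMT1, the kindlin of epithelia, stood at 0.132 FPKM at estrus and 5.61 FPKM at diestrus, and FERMT2, the kindlin of mesenchymal cells, at 66.6 FPKM at estrus and 40.8 FPKM at diestrus. The FERMT pair was singled out after its values were seen.

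Further plaque proteins and nectins lay on both sides. Of 23 rows 10 were counted, with 2 higher, 5 lower and 3 between, and the median log2 ratio was -0.88. Over all counted genes the shares were 31.3% higher and 33.1% lower, and 3 of the 10 passed the filter only through diestrus, so the count is a description. PLEC, plectin, stood at 30.3 FPKM at estrus and 51.8 FPKM at diestrus, and CTNND1, p120 catenin, at 18.5 FPKM at estrus and 37.99 FPKM at diestrus. NECTIN3 was at 0 in estrus and 16.9 FPKM at diestrus. ESAM, an endothelial adhesion molecule, was far on the other side at 50.7 FPKM at estrus and 1.49 FPKM at diestrus, while the endothelial members CDH5 and CLDN5 were at 0 in both.

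**Figure D4:**
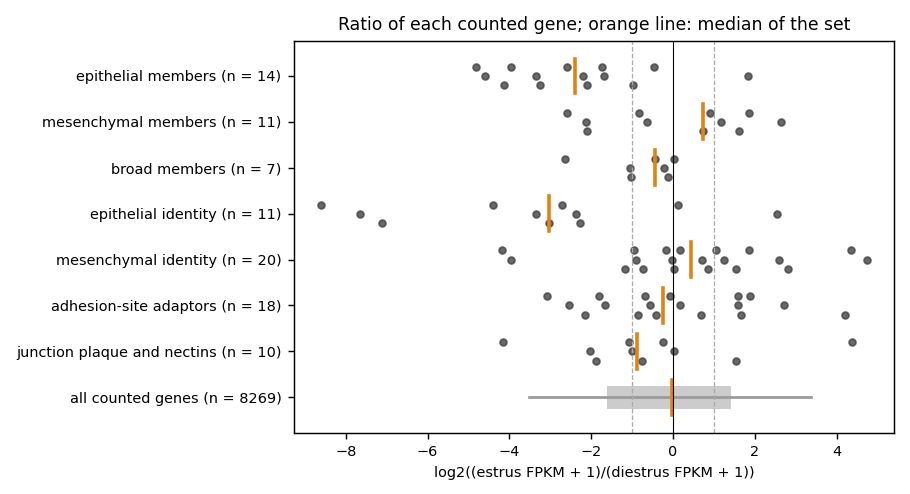
Log2 ratio of estrus over diestrus, on FPKM + 1, of each counted gene (dots) in 3 classes of members and 4 lists of other genes, with the median as an orange line and dashed lines at 2-fold. The grey bar of all 8269 counted genes spans the quartiles and its thin line the 5th to 95th percentiles. The epithelial members have a median of -2.39 and the epithelial identity genes of -3.04, while the mesenchymal members have a median of 0.74.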

How the data were processed

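RNA sequencing of cell-free saliva RNA gave 2 libraries, 1 per stage, and each stage was taken from the sample's label. Library preparation used Illumina's TruSeq RNA kit (version 2), per the labels' protocols. TopHat, Bowtie, Cufflinks and Cuffdiff were used per the submitters' processing notes. Tool versions and a genome build are not given in the sources used here. All FPKM values were made by the authors and are given per gene and library, per the file headers. The deposited log2 fold change runs as diestrus over estrus and was not used. From the authors' columns, p-value and q-value were copied as they stand.

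Members were found by symbol, and 102 of 110 symbols are also in the RefSeq buffalo annotation (NDDB_SH_1), a source of names alone. Coordinates come from the table, counted from 1, with starts read as counting from 0 because 124 of 134 olfactory receptor spans are then multiples of 3. Of the members 7 overlap another row, among them CTNNA1 of the counted ones. Rows with the Ensembl cattle prefix stand in the table, so a cattle annotation may underlie the values, and its effect on single genes was not tested. Some members and list genes enter the counts and sums but are not reported here by name. Ratios used a pseudocount of 1 FPKM, the filter was a mean of at least 1 FPKM and the calling limit was 2-fold. No test was possible. Fragment steps were read from the minority of loci of short span that fell on them. On simulated libraries built to follow such steps the error was at most 0.296%, which does not measure the error in these data. FPKM sums were 1016100 in estrus and 521566 in diestrus. Python 3.11.15 with pandas 2.3.3 was used. The members, classes and lists, and the rule that genes with a mean of at least 10 FPKM or at 0 in 1 library are named with values, were chosen with earlier results of these data known. List genes named with values are among the 4 most abundant counted genes of their list unless said otherwise. Alternatives covered the pseudocount, the filter, the calling limit and 3 rescalings.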

Additional observations from a re-analysis of the deposited data

How the results depend on the processing

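No paired analysis was possible because each stage has 1 library, and for the same reason no library could be left out. Of 320 comparisons of single members under 10 alternatives 279 moved by less than 1.5-fold on the ratio, 41 moved by more and 0 called members changed sign. Most of the 279 were fixed in advance. A change of filter or calling limit leaves a ratio as it is. The rescalings shift it by at most 0.545 in log2, under the 1.5-fold limit. Only the pseudocounts of 0.1 and 10 FPKM could move a member that far, and no alternative could turn the sign of a called one. With a pseudocount of 10 FPKM the epithelial class had 0 members higher and 4 lower with a median of -0.66, the mesenchymal class 2 higher, and all genes 1412 higher and 976 lower. A pseudocount of 0.1 FPKM moved the epithelial median to -5.15. With a mean of at least 10 FPKM the epithelial class held 2 members, 0 higher and 2 lower with a median of -4.70, the mesenchymal class had 1 lower, and all genes 1519 higher and 942 lower. With genes above 0 in both libraries the epithelial class had 2 lower with a median of -0.98, and all genes 1773 lower. Without a filter the epithelial median was -1.48. With at least 3 fragments per kb where higher, 7 epithelial members were lower with a median of -3.30. Calling at 4-fold left 0 epithelial and 1 mesenchymal members higher, and 1391 and 1531 of all genes higher and lower. With equal upper quartiles, and with equal sums without the 10 highest rows, 5 mesenchymal members were lower instead of 3. These rescalings moved the median of all genes to -0.43 and -0.60, and the share of higher among called genes to 38.7% and 35.1%, against 48.6% as deposited. That share was also 59.1% with a pseudocount of 10 FPKM and 61.7% with a mean of at least 10 FPKM. Depth limits the diestrus library most, since 13 of the 22 epithelial members above 0 there lay under 3 fragments per kb.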
